A study of Mus musculus with 7 samples.

Results

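A set of 7 long noncoding RNA genes known from neural cells was looked up by name in a table of gene expression from sorted embryonic arcuate neurons. They were Sox2ot, Malat1, Neat1, Miat, Rmst, Pantr1 and Snhg11, and 6 of the 7 names matched exactly 1 of the 18335 rows. No row carries the name Pantr1. The table holds 1083 genes that RefSeq types as lncRNA, so the members are a small, hand-picked share of that class. The members were listed by name, with earlier results of these data known.

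The libraries came from arcuate nuclei, the ventral hypothalamic region that controls feeding, dissected from mouse embryos at E15.5 (the embryonic day) and dissociated before sorting. There were 4 libraries of Pomc neurons, which make the precursor of appetite-suppressing peptides, and 3 columns of Npy neurons, which make the feeding peptide neuropeptide Y. Each library was made from 1 ng of total RNA with a stranded total RNA kit. The sources used here do not give the strain, the sorting reporter or which animals went into a library. The spread between libraries on which the p-values rest may therefore be technical. The column of Npy replicate 3 was left out, because it adds no measurement to Npy replicates 1 and 2: in each of 15223 genes it is a whole percent, between 95 and 105, of their mean (tolerance 1e-04 percentage points). All comparisons below are therefore of 4 Pomc with 2 Npy libraries.

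A long noncoding RNA is a transcript, usually spliced and capped like a messenger RNA, that acts without being translated. Several of the members stay in the nucleus. Malat1 gathers in nuclear speckles, which hold splicing factors, Neat1 is the scaffold of paraspeckles, and Miat forms its own nuclear spots and binds splicing factors. Others are known by their neighbours: Sox2ot is transcribed across the gene of the progenitor factor Sox2, Pantr1 starts beside the POU factor gene Pou3f3, and Snhg11 is a host gene of small nucleolar RNAs. Rmst rises during neuronal differentiation and its RNA binds the SOX2 protein.

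Of the 6 members, Sox2ot alone passed the test between the groups, and it was higher in Pomc neurons. In the same limma fit 0.412% of all 13845 tested genes were called in either direction: 0.289% higher in Pomc neurons and 0.123% in the other direction. This split of 40 to 17 genes rested on single libraries, with 68 to 1 when Npy replicate 1 was left out and 21 to 1 when Npy replicate 2 was, and it was 21 to 21 when every gene shared 1 prior variance. The other 5 members differed between libraries by more than they differed between the groups. Values are TPM, a level per transcript length that adds up to 1000000 in each library. Differences are log2 fold changes of TPM + 1, Pomc minus Npy, and a call is an adjusted p (Benjamini-Hochberg over all tested genes) of at most 0.05.

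Of the peptides that name the sorted groups, Pomc stood at 352 to 770.3 TPM in Pomc libraries and at 24.0 and 59.4 TPM in Npy libraries (limma adjusted p = 0.00454). Npy stood at 2.11 to 152 TPM in Pomc libraries and at 728 and 513 TPM in Npy libraries, a difference that did not pass (adjusted p = 0.418). Agrp, the peptide that arcuate Npy neurons also make, stood at 0 to 6.82 TPM in Pomc libraries and at 5.53 and 1.75 TPM in Npy libraries, so it did not mark the Npy group at this age. Between 12493 and 14933 genes were above 0 per library, fewest in Pomc replicate 4 and most in Npy replicate 1.

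Short annotated sequences from within these genes are printed here. They do not show what the rows count, since the counting rule is not given. The first set below is the microRNA annotated inside Sox2ot, whose row changed with its host. The hairpin of Mir1897 (GRCm38, chr3:34638464-34638542, plus strand) has its mature arm in capitals, and the mature miR-1897-3p has its seed, bases 2 to 8, in capitals. Both are from RefSeq (GRCm38.p6), 5′ to 3′.
Mir1897 hairpin: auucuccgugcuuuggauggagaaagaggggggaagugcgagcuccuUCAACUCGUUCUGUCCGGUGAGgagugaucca
mmu-miR-1897-3p: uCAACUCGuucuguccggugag

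The second set is from the microRNAs annotated inside Rmst, shown because their rows have values in only 2 libraries. Mir1251 (chr10:92137140-92137223) and Mir135a-2 (chr10:92072086-92072185) lie on the minus strand, as Rmst does. Seeds are in capitals, and no seed is shared between these arms or with miR-1897-3p.
mmu-miR-1251-5p: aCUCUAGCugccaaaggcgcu
mmu-miR-1251-3p: cGCUUUGCucagccaguguag
mmu-miR-135a-5p: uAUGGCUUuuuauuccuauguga

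The third is a stretch of the longest annotated Miat transcript (bases 5565 to 5644 of 9163, GENCODE M21, chr5:112216747-112216826, minus strand). It is shown for the 3 copies, in capitals, of TACTAAC, the branch point-like repeat for which the Miat RNA is known.
Miat repeat stretch: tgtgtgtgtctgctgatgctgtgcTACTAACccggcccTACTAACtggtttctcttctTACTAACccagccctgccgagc

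Sox2ot was the member that separated the groups. Its gene spans 578.4 kb of chromosome 3 (34104270 to 34682619 in GRCm38, GENCODE M21, plus strand) with 18 annotated transcripts, and RefSeq gives a shorter span from 34560381. Its level was 129.5, 203, 193 and 153 TPM in Pomc replicates 1 to 4 and 21.1 and 16.0 TPM in Npy replicates 1 and 2. Every Pomc library was above both Npy libraries, by a wide gap: the lowest Pomc library stood at 129.5 TPM and the highest Npy library at 21.1 TPM. The mean of 169.5 ± 34.3 TPM (SD, n = 4) was 9.15-fold the Npy mean of 18.5 TPM. The log2 fold change was 3.12 ± 0.25 (SE), with a 95% interval of 2.55 to 3.68 and a limma adjusted p of 0.0017. Among all tested genes, 8.05% had all Pomc libraries above both Npy libraries. The exact permutation test, two-sided, gave p = 0.0667 for Sox2ot, the smallest value that 15 splits allow. In these bulk libraries, fewer cells that express a gene and less of its RNA per cell cannot be told apart.

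**Figure D1:**
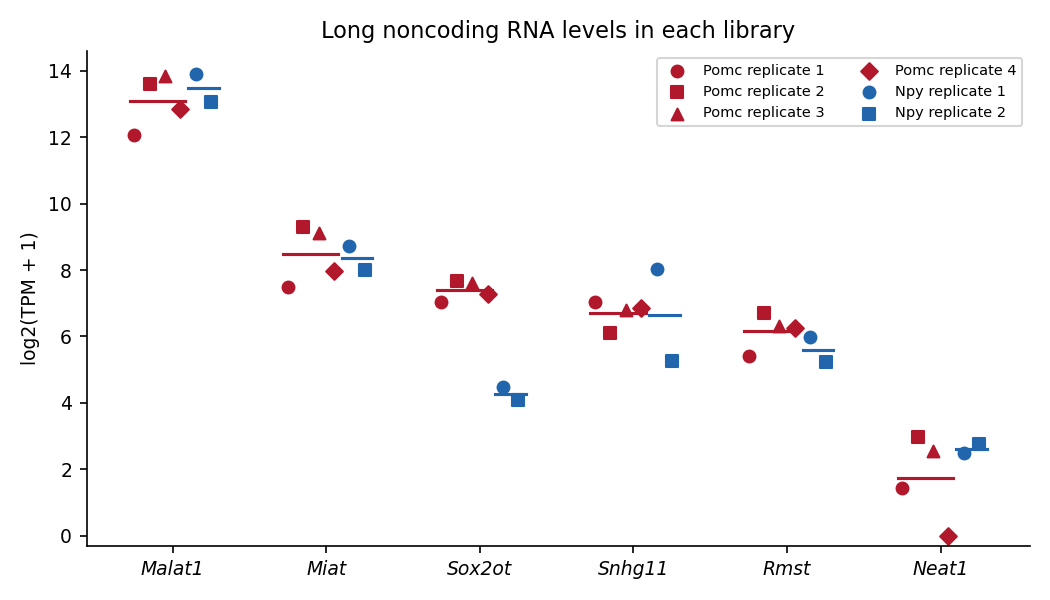
Level of each of the 6 members found in the table, as log2(TPM + 1), in the 4 Pomc libraries (red) and the 2 Npy libraries (blue). Marks are single libraries and lines are group means. Sox2ot is the only one of the 6 whose groups do not overlap, with 129.5 to 203 TPM in Pomc and 16.0 and 21.1 TPM in Npy libraries.

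Sox2, the SOX factor gene that keeps neural progenitors undifferentiated, lies inside Sox2ot on the same strand (34650405 to 34652461). No annotated exon of Sox2ot shares a base with it. Sox2 stood at 243, 294, 210.1 and 223 TPM in Pomc replicates 1 to 4 and at 39.3 and 42.5 TPM in Npy replicates 1 and 2. Its groups were as clearly apart as those of Sox2ot (log2 2.53 ± 0.20, limma adjusted p = 0.00168). Within a library, Sox2ot reached 0.534 to 0.918 of the level of Sox2 in Pomc libraries and 0.536 and 0.376 of it in Npy libraries. These ratios overlapped between the groups, and the exact permutation test of their log2 values gave p = 0.133. The next protein-coding genes outward, Dnajc19 at 479 kb and Atp11b at 1076 kb from the RefSeq span, overlapped between the groups, with 7.13 to 14.7 TPM against 14.0 and 18.9 TPM for Dnajc19 and 26.8 to 57.7 TPM against 62.6 and 40.9 TPM for Atp11b.

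The Mir1897 hairpin printed above lies within Sox2ot exons. Of the 18 transcripts, 7 hold all 79 bases of the hairpin in an exon, 2 hold part of it and 9 hold none. The Mir1897 row stood at 136, 134, 112 and 322 TPM in Pomc replicates 1 to 4, at 5.21 TPM in Npy replicate 1 and at 0 in Npy replicate 2. It followed its host between the groups (log2 6.02 ± 0.68, limma adjusted p = 0.00637), with a size that depends on the added 1 TPM. Its call ended with a pseudocount of 0.1 (adjusted p = 0.0549) and when every gene shared 1 prior variance (0.0625). Within the Pomc group it did not follow its host: Pomc replicate 4 had the highest Mir1897 value and the second lowest Sox2ot value. Per unit of Sox2ot, it ranged from 0.582 to 2.11 in Pomc libraries and reached 0.247 and 0 in Npy libraries. The row covers 79 bases and the counting rule is not given, so reads of the Sox2ot exon and of the microRNA precursor cannot be told apart.

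A second row had the same arrangement. Gm5607, which RefSeq now names Sox1ot, runs over Sox1 on the same strand (chromosome 8, 12385771 to 12436768), again with no exon base shared. It stood at 101, 229, 164 and 117 TPM in Pomc replicates 1 to 4 and at 11.2 and 16.6 TPM in Npy replicates 1 and 2. Its log2 fold change was 3.32 ± 0.35 (limma adjusted p = 0.004, or 0.0501 when every gene shared 1 prior variance). Sox1, a close relative of Sox2, stood at 248, 311, 256 and 284 TPM against 37.5 and 69.3 TPM (log2 2.40 ± 0.25, adjusted p = 0.004, or 0.0625 in that setting). The share of Sox1ot to Sox1 was 0.406 to 0.737 in Pomc and 0.3 and 0.24 in Npy libraries, which did not overlap (exact permutation p = 0.133).

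Sox2ot and Gm5607 were the only calls among the 517 tested lncRNA genes. That is 0.387% of the class, near the 0.412% of all tested genes and the 0.393% of protein-coding genes, so the class as a whole was not richer in calls. By limma no lncRNA gene was called higher in Npy neurons, while at an unadjusted p under 0.05 26 (5.03%) were higher in Npy neurons and 13 (2.51%) in Pomc neurons. Over all tested genes these shares were 3.28% and 4.08%, and among the 140 lncRNA genes at a mean of 10 TPM or more the counts were 7 and 8. The groups did not overlap in 13.2% of lncRNA genes (4.84% with all Pomc libraries above and 8.32% with both Npy libraries above) and in 15.9% of all tested genes. The standard error was larger for lncRNA genes, with a median of 0.80 against 0.45 over all tested genes.

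**Figure D2:**
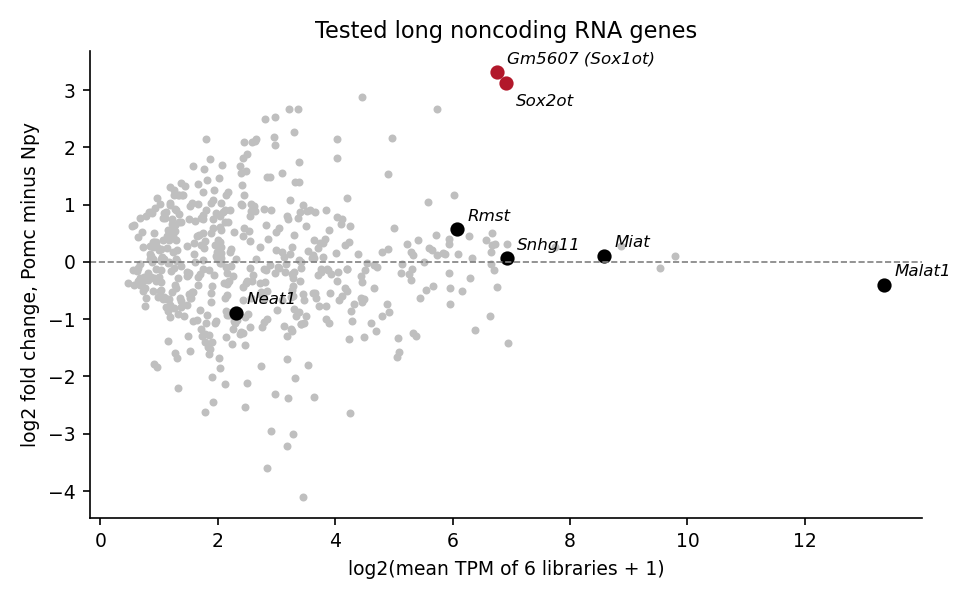
Each point is 1 of the 517 tested lncRNA genes, with its mean level over the 6 libraries as log2(TPM + 1) on the x axis and its log2 fold change, Pomc minus Npy, on the y axis. The called genes Sox2ot and Gm5607 (Sox1ot) are red, and the other 5 members, in black, lie between -0.88 and 0.57.

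Sox3, the third gene of the same SOX group, stood at 87.2, 105, 59.9 and 53.2 TPM in Pomc replicates 1 to 4 and at 5.78 and 9.06 TPM in Npy replicates 1 and 2 (log2 3.17 ± 0.37, limma adjusted p = 0.00695). On the list of 10 SOX and neural progenitor factors, 9 were tested. By limma 3 were called higher in Pomc neurons (Sox1, Sox2 and Sox3), none was called the other way and 6 were not called. Of all tested genes, limma called 0.289% higher in Pomc neurons and 0.123% in the other direction. Earlier results of these data were known when the list was made. At an unadjusted p under 0.05 4 of the list were higher in Pomc neurons and 1 in Npy neurons, where 4.08% and 3.28% of all tested genes were. The log2 fold changes of this list had a median of 0.75, against 0.02 over all tested genes. Of the 9 tested, 6 had log2 fold changes above 0 and 3 below 0. The intermediate filament gene Nes, a general progenitor marker, had a log2 fold change of -1.16 and did not pass (adjusted p = 0.418). Another progenitor marker, Vim, lay the other way at 0.745 and did not pass either (limma adjusted p = 0.696).

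**Figure D3:**
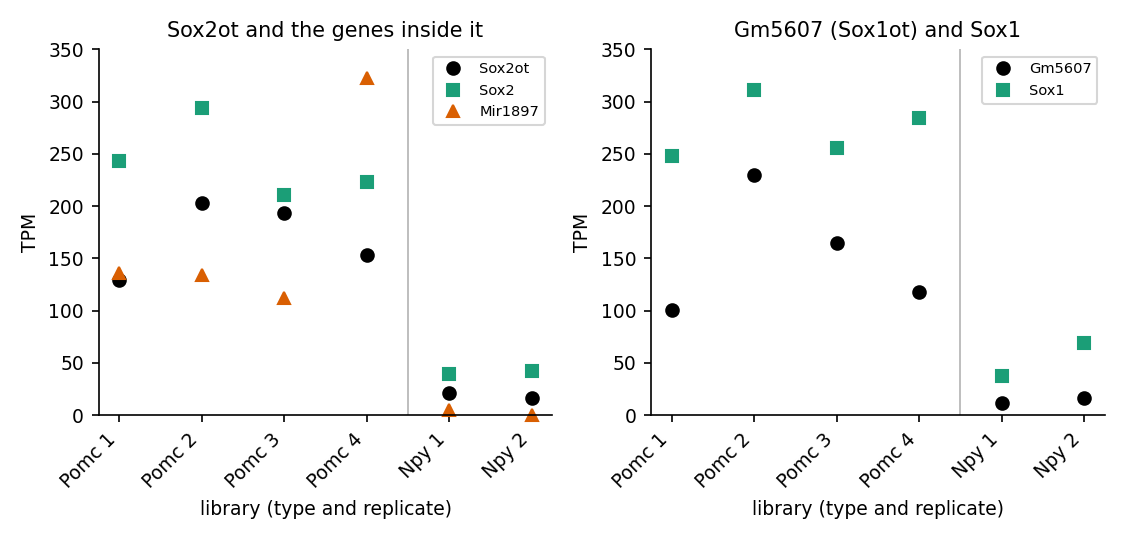
TPM in each library for Sox2ot with Sox2 and the Mir1897 row (left) and for Gm5607, now named Sox1ot, with Sox1 (right). Points are single libraries, and the vertical line parts the 4 Pomc from the 2 Npy libraries. All 5 rows are lower in both Npy libraries, where the highest value is 69.3 TPM, for Sox1.

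Markers of other cells were read beside these SOX rows. Radial glia and tanycyte genes, which mark progenitors, were all above 0 in some library of each group. Their 15 members summed to 439 to 872 TPM in Pomc libraries and to 838 and 584 TPM in Npy libraries, so the sums overlapped. None of the 14 tested was called by limma, with 1 (Pomc) and 3 (Npy) higher at an unadjusted p under 0.05. Of all tested genes, 4.08% (Pomc) and 3.28% (Npy) were higher at that level. Fabp7, a defining marker of radial glia, lay in the opposite direction to Sox2ot but did not pass (limma adjusted p = 0.272). It stood at 1.61 to 61.6 TPM in Pomc libraries and at 323 and 176 TPM in Npy libraries. Of the 14 tested radial glia and tanycyte genes, 6 had log2 fold changes above 0 and 8 below 0. Oligodendrocyte lineage genes lay mostly higher in Npy libraries. Their 12 members summed to 71.9 to 116 TPM in Pomc libraries and to 302 and 279 TPM in Npy libraries. Of 11 tested, 6 were called higher in Npy neurons by limma, against 0.123% of all tested genes. The 6 were Cspg4, Gpr17, Olig1, Olig2, Pdgfra and Sox10. By sign, 9 of the 11 had log2 fold changes below 0 and 2 above 0. At an unadjusted p under 0.05 6 were higher in Npy neurons and 1 in Pomc neurons, where 3.28% and 4.08% of all tested genes were. The defining markers Olig2, Cspg4 and Mog were at 0 in all Pomc libraries, and 1 gene of the list was at 0 in both Npy libraries. Cell cycle genes, the other mark of dividing progenitors, also lay the opposite way to Sox2ot. Their 26 members summed to 173 to 275 TPM in Pomc libraries and to 372 and 329 TPM in Npy libraries. Their median log2 fold change was -1.47, with 24 of 26 below 0, against 6745 of all 13845 tested genes. None of the 26 was called by limma. At an unadjusted p under 0.05 9 were higher in Npy neurons, as were 3.28% of all tested genes. The part of these marker lists in the SOX result was not tested. Short RNA genes took 9.41 to 12.2% of TPM in Pomc libraries and 13.1 and 15.9% in Npy libraries. Without them Sox2ot had a log2 fold change of 3.07.

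The speckle RNA Malat1 was the most abundant lncRNA in each of the 6 libraries. It has a single-exon main transcript of 6983 bases on chromosome 19 (5795690 to 5802672, minus strand). Its level was 4294, 12563, 14644 and 7324 TPM in Pomc replicates 1 to 4 and 15372 and 8583 TPM in Npy replicates 1 and 2. It ranked between 2 and 12 among all genes and made up 39.6 to 58.6% of all lncRNA TPM in a library. The groups overlapped, and the highest library was 3.58-fold above the lowest. The log2 fold change of -0.40 ± 0.53 did not pass (95% interval -1.59 to 0.80, limma adjusted p = 0.903), and without Npy replicate 1 it was 0.02. The interval holds differences of either sign, and it is not a limit of detection for a call over all tested genes.

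Speckle proteins, the splicing machinery that Malat1 gathers with, were read from a list of 23 genes. None passed in either direction by limma, also at an unadjusted p under 0.05, and the median log2 fold change was -0.02. Rbm25, a splicing regulator, had the largest fold change among those at 10 TPM or more, at 0.70 ± 0.48 (adjusted p = 0.815), and the kinase gene Clk1, which phosphorylates SR proteins, stood at -0.37 ± 0.25 (adjusted p = 0.808). Frmd8, a protein-coding gene 48.3 kb from Malat1 and 5.5 kb from Neat1, did not pass either (adjusted p = 0.923).

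Neat1, the neighbour of Malat1 on the same strand (5824708 to 5845478), was the least abundant member. It stood at 1.72, 6.77, 4.86 and 0 TPM in Pomc replicates 1 to 4 and at 4.61 and 5.76 TPM in Npy replicates 1 and 2. The groups overlapped, and Pomc replicate 4 alone was listed at 0. Its log2 fold change was -0.88 ± 0.89 (95% interval -2.88 to 1.11, limma adjusted p = 0.867). Where both had a value, Malat1 stood 1490 to 3335 times above Neat1 per length. The gene has a short form and a long form of 20771 bases, of which the long one builds paraspeckles. The row joins them, so the forms cannot be told apart, and its TPM depends on which length was used.

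Paraspeckle proteins were present in both groups at 5719 to 7077 TPM summed over 18 genes in Pomc libraries and at 6911 and 6449 TPM in Npy libraries. None of the 18 passed by limma, also at an unadjusted p under 0.05, and the median log2 fold change was 0.04. Matr3, a nuclear matrix RNA-binding protein, stood at 481 to 665 TPM against 580 and 311 TPM (adjusted p = 0.808), and the cleavage factor gene Nudt21 at 115 to 183 TPM against 74.8 and 141 TPM (adjusted p = 0.807).

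Miat lies on chromosome 5 (112213228 to 112229395, minus strand). It stood at 179, 632, 558 and 248 TPM in Pomc replicates 1 to 4 and at 426 and 253 TPM in Npy replicates 1 and 2, and ranked between 4 and 6 among lncRNA genes in each library. The Npy values lay within the range of the Pomc values. Its log2 fold change was 0.11 ± 0.49 (95% interval -0.99 to 1.21, limma adjusted p = 0.975), and its sign turned when Pomc replicate 2 (-0.17), Pomc replicate 3 (-0.11) or the second Npy library (-0.27) was left out.

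The longest Miat transcript holds 6 copies of TACTAAC on its own strand, 3 of them in the stretch printed above. Of the 140 GENCODE lncRNA genes (with Snhg11) whose longest transcript has at least 5000 bases, 18.6% have at least 1 copy and 0.71% have 6 or more, which is Miat itself. Of the other members, the longest transcript of Neat1 has 1 copy and those of Sox2ot, Malat1, Rmst, Pantr1 and Snhg11 have 0. Of the 4 splicing factors reported to bind Miat, none passed by limma, also at an unadjusted p under 0.05. Srsf1, an SR protein, stood at 125 to 194 TPM in Pomc libraries and at 156 and 137 TPM in Npy libraries. Qk, a KH-domain splicing factor of glia and neurons, stood at 17.3 to 39.4 TPM against 50.5 and 46.3 TPM (log2 -0.65 ± 0.37, adjusted p = 0.791).

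Malat1 and Miat were high and low in the same libraries. For both, Pomc replicates 2 and 3 and Npy replicate 1 were the 3 highest, and Pomc replicate 1 was the lowest, with Pomc replicate 4 next to it. Their log2 levels correlated at r = 0.90 over the 6 libraries, a description over libraries that also share their preparation. The imprinted transcripts Meg3 and Ipw, picked after their values were seen, had the same 3 highest libraries: Meg3 at 838, 1007 and 1244 TPM against 396 to 548 TPM, and Ipw at 1249, 1132 and 1182 TPM against 453 to 776 TPM. Besides the members, 24.4% of the 135 lncRNA genes at a mean of 10 TPM or more had these 3 libraries highest, and 10.1% of the 9235 protein-coding genes at that level. This set of 3 libraries was also picked after the values were seen. The summed level of the other lncRNA genes was also higher in them. Without Malat1, lncRNA genes took 1.05, 1.04 and 1.09% of TPM in Pomc replicates 2 and 3 and Npy replicate 1 and 0.656 to 0.847% in the other 3. The number of lncRNA genes above 0 did not follow this split, with 527, 617 and 627 in these 3 and 546, 351 and 380 in Pomc replicate 1, Pomc replicate 4 and Npy replicate 2. The part of such library differences in the Malat1 and Miat levels was not tested.

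**Figure D4:**
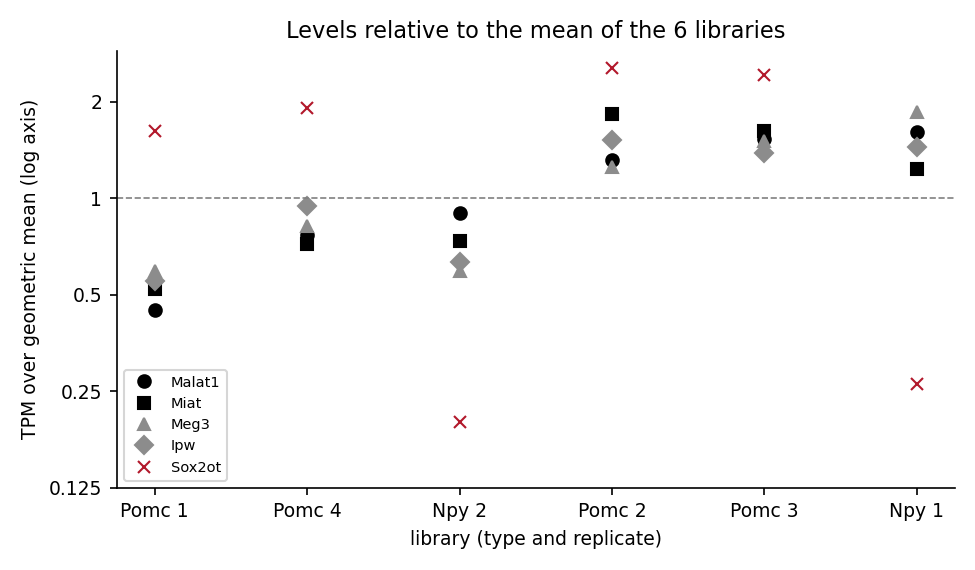
TPM of 5 lncRNA genes over their geometric mean across the 6 libraries (log axis, 1 marked by the dashed line), with libraries ordered by Malat1. Malat1, Miat, Meg3 and Ipw lie below 1 in Pomc replicates 1 and 4 and Npy replicate 2 and above 1 in the other 3 libraries, while Sox2ot (red) is low in the 2 Npy libraries.

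Rmst lies on chromosome 10 (92071037 to 92165170, minus strand) and has 14 annotated transcripts. It stood at 41.4, 103, 78.7 and 76.1 TPM in Pomc replicates 1 to 4 and at 62.3 and 36.4 TPM in Npy replicates 1 and 2. Pomc replicates 2, 3 and 4 were above both Npy libraries and Pomc replicate 1 was between them, so the groups overlapped. The log2 fold change was 0.57 ± 0.37 (95% interval -0.27 to 1.41, limma adjusted p = 0.808). The nearest protein-coding genes, Tmpo and Nedd1, lie 900 and 519.6 kb away and did not pass (adjusted p = 0.805 and 0.933).

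The microRNA rows inside Rmst had few values. Mir1251 stood at 16.4 TPM in Pomc replicate 3 and at 38.2 TPM in Npy replicate 1, and Mir135a-2 at 57.4 and 20.6 TPM in the same libraries. Both were listed at 0 in the other 4 libraries. No annotated exon of Rmst shares a base with either hairpin. Pomc replicate 3 and Npy replicate 1 are also the libraries with the most lncRNA genes above 0.

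Snhg11 lies on chromosome 2 (158375638 to 158386145, plus strand). RefSeq types it as lncRNA and GENCODE M21 as protein-coding. It stood at 131, 67.9, 111 and 116 TPM in Pomc replicates 1 to 4, at 260.4 TPM in Npy replicate 1 and at 36.9 TPM in Npy replicate 2. The Npy libraries held both the highest and the lowest value of all 6, a 7.05-fold range. The log2 fold change was 0.07 ± 0.62 (95% interval -1.34 to 1.48, limma adjusted p = 0.987). Without Npy replicate 2 it was -1.32, without Npy replicate 1 it was 1.46 and without Pomc replicate 1 it was -0.04, so its sign rested on single libraries. Its downstream neighbour Ralgapb, a regulator of Ral GTPases at 23.4 kb, stood at 51.5 to 71.8 TPM against 51.8 and 40.6 TPM and did not pass (adjusted p = 0.839).

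**Figure D5:**
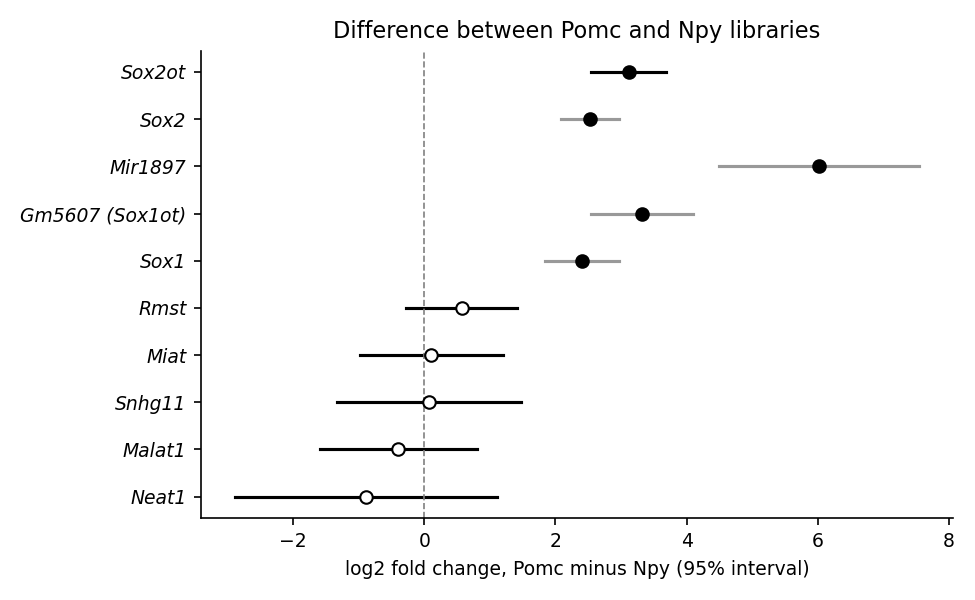
Log2 fold change, Pomc minus Npy, with its 95% interval from limma for the 6 members (black lines) and for Sox2, Mir1897, Gm5607 (Sox1ot) and Sox1 (grey lines). Filled marks passed an adjusted p of 0.05: Sox2ot and the 4 rows that overlap a SOX gene or Sox2ot. The intervals of the other 5 members all span 0.

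Pantr1, the member without a row, starts 0.9 kb from Pou3f3 on chromosome 1 and runs away from it. RefSeq lists Pou3f3os as a synonym of Pantr1, and a row of that name is in the table. It did not count as a member. It stood at 3.49 TPM in Pomc replicate 1 and at 11.2 TPM in Npy replicate 1, and was listed at 0 in the other 4 libraries. Pou3f3 itself, a POU factor of upper-layer and hypothalamic neurons, stood at 0.643, 0.0313, 0 and 0 TPM in Pomc replicates 1 to 4 and at 20.3 and 6.53 TPM in Npy replicates 1 and 2. Both Npy libraries were above all Pomc libraries, as in 7.86% of all tested genes, but the difference did not pass (log2 -3.47 ± 0.71, limma adjusted p = 0.115). Of the 4 POU class III factors none passed by limma, with 3 higher in Npy neurons at an unadjusted p under 0.05 and a median log2 fold change of -1.96. Of all tested genes, 3.28% were higher in Npy neurons at that level. Pou3f1 stood at 4.50 to 10.03 TPM against 18.3 and 41.6 TPM (adjusted p = 0.381).

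Other lncRNA genes were read from a list of 64 names, 57 of which matched a row, 17 of them by an older symbol. Of 52 tested, 1 was higher in Pomc neurons (Gm5607), none was called higher in Npy neurons by limma and 51 did not pass. At an unadjusted p under 0.05, 2 were higher in Pomc neurons and 9 in Npy neurons. Among all tested lncRNA genes, 2.51% (Pomc) and 5.03% (Npy) were higher at that level, and limma called 0.387%. Over all tested genes the shares were 4.08%, 3.28% and 0.412%. The 52 log2 fold changes had a median of -0.38, against -0.04 over all tested lncRNA genes. Dlx6os1, a transcript of the Dlx5 and Dlx6 locus of GABAergic neurons, stood at 3.94 to 7.23 TPM in Pomc libraries and at 63.3 and 23.1 TPM in Npy libraries (log2 -2.63 ± 0.57, adjusted p = 0.153). The snoRNA host genes Snhg3 and Snhg20 had log2 fold changes of -1.81 and -1.58, and the microRNA host Mirg of -1.66, with adjusted p of 0.815, 0.414 and 0.815.

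By the order of mean TPM over the 6 libraries, Malat1 stood first at 10463, followed by Miat at 383, Snhg11 at 120.5, Sox2ot at 119, Rmst at 66.3 and Neat1 at 3.95. Miat, Snhg11 and Sox2ot overlapped in their library ranges, as did Rmst with Snhg11 and with Sox2ot. Malat1 was above and Neat1 below all the others in every library. In Npy libraries alone Sox2ot fell below Rmst, at 21.1 and 16.0 TPM against 62.3 and 36.4 TPM.

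The rows most like each member over the 6 libraries, by Pearson r of log2(TPM + 1) among genes at a mean of 5 TPM or more, were listed as a description. For Sox2ot they were Cacna2d1, a calcium channel subunit gene, Nell1 and Calb1, which encodes calbindin (r = 0.99 for each). For Malat1 they were Paxbp1, Zfp26 and Ccnl1 (r = 1.00, 0.99 and 0.99), for Miat Akap8, Mbnl2 and Zfp397 (0.99 each) and for Rmst Zfp654, Dhx36 and E030024N20Rik (0.99 each). For Neat1 they were Polm, Tbc1d31 and Gramd4 (r = 1.00, 1.00 and 0.99), and for Snhg11 Cers6, Cabp1 and Chl1 (r = 0.99, 0.98 and 0.98). With 6 libraries, 20 to 138 rows reached r over 0.95 for a member, so likeness of this size was common.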

How the data were processed

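A single deposited table pairs gene symbols with 7 value columns, and its header names no unit. The deposited values were taken as TPM from the values themselves, since 6 columns sum to 1000000. The submitters' processing notes name HISAT2, edgeR 3.8 and mm10, without roles. The annotation, counting tool, length definition and strand use are not given in these sources, and read depth is unknown. Overlapping and antisense genes are therefore uncertain.

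From the deposited TPM, limma 3.58.1 in R 4.3.3 was fitted on log2(TPM + 1) with limma's trend option, for genes at 1 TPM or more in at least 2 of 6 libraries. This fit was tested on simulated data. The 4 rows of symbols that occur more than once were left out. Biotypes came from RefSeq (GRCm38.p6), which matched 17247 symbols directly and 975 by synonym, and gene models from GENCODE M21 (GRCm38). Sequences came from RefSeq and GENCODE tables. The members and lists were chosen with earlier results of these data known. Named list genes were those past the threshold and otherwise the 2 (for lncRNA genes 5) with the largest fold change at a mean of 10 TPM or more. Some, such as Nes, Vim and Mog, were named outside this rule. Npy replicate 3 entered only 1 alternative.

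The replicate numbers come from the titles, which do not say that a number marks a shared animal or day. The remaining lists gave these counts of limma calls among those tested. Pan-neuronal genes had 0 of 17 (5 higher in Pomc neurons at an unadjusted p under 0.05) and microglia genes 0 of 3 (1 each way). Endothelial and pericyte genes had 1 of 7, higher in Npy neurons (2 unadjusted). This was Cspg4, also on the oligodendrocyte list. Fibroblast genes had 0 of 4 and red blood cell genes 0 of 2 (0 unadjusted in each). Of all tested genes, 0.412% were called, and unadjusted 4.08% (Pomc) and 3.28% (Npy) were higher. Summed microglia genes stood at 66.9 TPM in Pomc replicate 4 and at 8.30 to 10.5 TPM in the other libraries. Summed red blood cell genes stood at 88.8 TPM in Pomc replicate 4 and at 0 to 36.0 TPM in the others.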

Additional observations from a re-analysis of the deposited data

Results flagged for a closer look

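In 14 genes, the Pomc library farthest from the others was set against the range of the 4 Pomc libraries, and chance gives about 1 in 20 such groups. Pomc replicate 4 stood apart for Mir1897, at 322 TPM where the other 3 ranged from 112 to 136 TPM. The other 4 genes are at or near 0 in most Pomc libraries, where any value stands apart: Mir135a-2 at 57.4 TPM and Mir1251 at 16.4 TPM in Pomc replicate 3, and Pou3f3os at 3.49 TPM and Pou3f3 at 0.643 TPM in Pomc replicate 1. The chance rate does not apply to those 4. None of the 6 members stood apart in this way.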

How the results depend on the processing

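Sox2ot was called in the fit as reported and in 16 of 17 alternatives, with log2 fold changes of 2.88 to 3.30. Its call with all 7 columns adds no support, because Npy replicate 3 adds no measurement to Npy replicates 1 and 2. The alternatives without Npy replicate 1 or without Npy replicate 2 keep a single Npy library, so they hold no spread within that group. The exception was the replicate block, where the log2 fold change of Sox2ot was 3.07 with a limma adjusted p of 0.053. In that fit Pomc replicates 3 and 4 add nothing to the difference, since no Npy library used there shares their number. The labels do not say whether equal numbers mark paired libraries. Same-numbered libraries deviated from their group means at r = -0.04 (replicate 1) and -0.03 (replicate 2). With only 2 Npy libraries their deviations mirror each other, so these values are not separate checks and cannot decide whether the libraries are paired. With that replicate block 12 genes and 1 lncRNA gene were called, and Snhg11 had -0.06. The other members passed in no alternative. Snhg11 was -0.02 with quantile normalization and -0.14 with all 7 columns. Leaving out 1 library gave -1.32 to 1.46 for Snhg11, -0.27 to 0.48 for Miat and -0.82 to 0.02 for Malat1, which was above 0 without Npy replicate 1. With the block, Sox1 (adjusted p = 0.0576) and Sox3 (0.053) were not called. Sox2 was called in all 17 alternatives, of which the fit with all 7 columns likewise adds no support. Leaving out 1 library moved Rmst between 0.19 (without Npy replicate 2) and 0.95 (without Npy replicate 1) and Neat1 between -1.29 (without Pomc replicate 2) and -0.30 (without Pomc replicate 4), and Neat1 was -1.73 with a pseudocount of 0.1. Neat1 did not meet the filter of 5 TPM in at least 3 libraries.

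The 57 called genes became 37 with a pseudocount of 0.1, 33 with no filter, 205 with all 7 columns and 22 to 69 without 1 library (31 without Pomc replicate 1, 36 without Pomc replicate 2, 29 without Pomc replicate 3 and 22 without Npy replicate 2). The 2 called lncRNA genes became 1 with 1 prior variance for all genes, 4 without short RNA genes, 11 with all 7 columns and 2 to 4 without 1 library (4 without Npy replicate 1). The cause of these changes was not tested. The 95% intervals of the 5 members that did not pass are at least 1.68 wide on the log2 scale.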

Other observations

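Some other lncRNA genes lay in the same direction between the groups as a transcription factor gene they overlap or adjoin, but none of those named here passed. Six3os1 stood at 67.3 to 102 TPM in Pomc libraries and at 29.3 and 39.7 TPM in Npy libraries, and Six3, a forebrain homeobox gene, at 236 to 365 TPM against 117 and 157 TPM. Tbx3os2 stood at 18.3 to 25.5 TPM against 1.76 and 7.55 TPM, and Tbx3, which is needed for arcuate neuron identity, at 245 to 301 TPM against 99.2 and 141 TPM. E030019B13Rik, beside Nkx2-1, stood at 51.2 to 94.7 TPM against 20.1 and 4.85 TPM, and Nkx2-1, a factor of the ventral hypothalamus, at 182 to 357.5 TPM against 46.5 and 80.1 TPM. In the other direction, Lhx1os stood at 0 to 3.06 TPM against 22.2 and 11.8 TPM, and Lhx1 at 0 to 1.39 TPM against 9.07 and 5.21 TPM. The limma adjusted p was 0.175 for Six3os1, 0.279 for Tbx3os2, 0.089 for E030019B13Rik and 0.169 for Lhx1os. Of the partners, Tbx3 (adjusted p = 0.0397) and Nkx2-1 (0.0211) passed, and Six3 (0.131) and Lhx1 (0.375) did not. These pairs were picked after their values were seen.

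Of the 140 lncRNA genes at a mean of 10 TPM or more, 120 had a nearest protein-coding gene that was tested. Of these 120 pairs, 71 had log2 fold changes of the same sign (59.2%). Where the spans overlapped, 25 of 47 pairs had the same sign (53.2%), with a Pearson r of 0.65 between the log2 fold changes. Among pairs within 50 kb with spans apart, it was 35 of 58 (60.3%), with r of 0.44. The genes of a pair can share reads where they overlap, and strand use is not given. The part of shared reads in these values was not tested.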
